A study of Homo sapiens with 6 samples.

Results

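The let-7 family guide strands comprise 9 mature miRNAs, let-7a-5p to let-7g-5p, let-7i-5p and miR-98-5p. The tables list them as hsa-let-7a-5p, hsa-let-7b-5p, hsa-let-7c-5p, hsa-let-7d-5p, hsa-let-7e-5p, hsa-let-7f-5p, hsa-let-7g-5p, hsa-let-7i-5p and hsa-miR-98-5p. They were chosen by name as the 5p products of the let-7 and miR-98 genes, from the 2576 mature miRNAs listed in each count table. The rule used no level, but earlier results of these data were known when the choice was made. Small RNA libraries had been made from MIO-M1, an established human Müller glial cell line recorded as wild type, with 3 libraries of RNA from whole cells (passages 22, 24 and 26) and 3 libraries of RNA from the extracellular vesicles (EV) that the line secreted (passages 23, 25 and 27). The libraries of each group are called replicates 1, 2 and 3 in order of passage. All cultures were grown in DMEM with 10% FCS, washed 5 times with PBS and, per the labels, held for 24 h without serum before the supernatant was spun in successive rounds to collect EV. The study's methods give a longer conditioning time and fewer washes. Whole cell RNA was isolated with an RNeasy kit and EV RNA with a Total Exosome RNA kit, so the extraction method and the source of the RNA cannot be told apart. The replicates are passages of 1 cell line, with 1 library each. The p-values therefore measure the spread between libraries of that line, in which passage, isolation and library preparation cannot be told apart.

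let-7 miRNAs were first described as timers of development in worms and are conserved across animals. The guide strand is loaded into an Argonaute protein, where its seed (bases 2 to 8) pairs with target messenger RNA, and targets of the family include LIN28, HMGA2 and RAS genes. LIN28 in turn blocks the maturation of let-7 precursors, so that let-7 is low in stem and progenitor cells and high in differentiated cells. In the retina let-7 miRNAs are among the abundant miRNAs of Müller glia, the glial cell that spans the retina.

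All 9 members were matched to mature sequences from RefSeq (assembly GRCh38.p14). The sequences are shown because the members are told apart by a few bases only, written 5′ to 3′ with the seed in capitals.
let-7a-5p: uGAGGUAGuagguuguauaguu
let-7b-5p: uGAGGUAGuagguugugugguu
let-7c-5p: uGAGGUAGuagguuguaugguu
let-7d-5p: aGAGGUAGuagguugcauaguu
let-7e-5p: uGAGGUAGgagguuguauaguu
let-7f-5p: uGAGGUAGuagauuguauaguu
let-7g-5p: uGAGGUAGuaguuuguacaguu
let-7i-5p: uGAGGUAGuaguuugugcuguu
miR-98-5p: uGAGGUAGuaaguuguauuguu

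Each member had 22 bases and the same seed. Relative to let-7a-5p, counted from 1 at the 5′ end, let-7c-5p carried A19G, let-7e-5p U9G and let-7f-5p G12A, a single substitution each. let-7b-5p carried A17G and A19G, let-7d-5p U1A and U16C, let-7g-5p G12U and U18C, and miR-98-5p G11A and A19U. let-7i-5p was the farthest from let-7a-5p, with G12U, A17G, U18C and A19U. Of the 36 pairs of members, 4 differed at 1 base, 10 at 2 bases and 11 at 3 bases. The table header lists no option for reads that match more than 1 miRNA, so the split of counts between members 1 base apart is uncertain. The GC content of the mature strand was 31.8% for let-7f-5p and miR-98-5p, 36.4% for let-7a-5p and let-7g-5p, 40.9% for let-7c-5p, let-7d-5p, let-7e-5p and let-7i-5p, and 45.5% for let-7b-5p. The median of the miRNAs kept for testing that had a sequence was 50%.

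The mature strands were searched for 4 motifs of 4 letters, on the strand itself. GGAG, a motif bound by the RNA-binding protein hnRNPA2B1, occurred in let-7e-5p only, and in 15.7% of the 2370 mature miRNAs of the sequence table. UGCA occurred in let-7d-5p only, against 12.5% of all mature miRNAs. CCCU and GGCU occurred in 0 members, against 11.9% and 12.6%. Levels of miRNAs with and without these motifs were not compared. A match is a description of the letters and not of binding.

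The 9 guide strands are encoded at 12 loci on 8 chromosomes (GRCh38.p14 positions, with host genes from GENCODE 29). let-7f-5p is encoded at chr9:94176353-94176374, in an intron of the lincRNA AL158152.2, and on the minus strand at chrX:53557246-53557267, in an intron of HUWE1. let-7d-5p is encoded at chr9:94178841-94178862 in an intron of the same lincRNA, which also holds a copy of let-7a-5p at chr9:94175962-94175983. The second copy of let-7a-5p lies in an intron of MIR100HG on chromosome 11 and the third in an exon of MIRLET7BHG on chromosome 22, the host of let-7b-5p. let-7e-5p is encoded at chr19:51692793-51692814, in an intron of SPACA6 and opposite an exon of SPACA6P-AS. miR-98-5p shares the HUWE1 intron with the second copy of let-7f-5p. let-7c-5p lies in an intron of MIR99AHG on chromosome 21, let-7g-5p in an intron of WDR82 on chromosome 3, and let-7i-5p in an intron of AC048341.1 on chromosome 12. A mature count does not tell apart the copies of let-7a-5p or of let-7f-5p.

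The authors deposited raw counts of reads assigned to each mature miRNA. The totals of the whole cell libraries lay between 396025 and 3990900 counts, and those of the EV libraries between 1225541 and 3134561. Levels are given as CPM, the count of a miRNA for each 1000000 counts of its library. A CPM value is a share of the library, so the number of cells or EV of a kind and the RNA held by each cannot be told apart. Every member was detected in all 6 libraries with at least 371 counts. The exact 95% binomial interval of a level, which covers counting error only, was within 10.3% of the value for miR-98-5p, 6.05% for let-7d-5p and 3.41% for the other 7 members. Testing was limited to miRNAs at 5 CPM or more in 3 or more libraries, which kept 430 miRNAs and all 9 members. A log2 fold change is the level in EV against whole cells from edgeR's quasi-likelihood test on counts scaled by TMM factors, and a member is called changed at an adjusted p under 0.05 over the 430 miRNAs.

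The members called between whole cells and EV went in both directions. let-7f-5p rose 2.57-fold in EV, let-7d-5p and let-7e-5p fell, and the other 6 members did not pass the test. Thus 3 of the 9 members (33.3%) were called, 1 higher and 2 lower. Of all 430 miRNAs 28.6% were called, 14.7% as higher and 14.0% as lower, so the share among the members was near the background. DESeq2 called the same 3 members, against 34.7% of all miRNAs (14.9% higher and 19.8% lower). At an adjusted p under 0.01 edgeR called 0 members and 7.21% of all miRNAs. The median log2 fold change was -0.24 over the members and -0.23 over all miRNAs tested. After TMM scaling the groups did not overlap for 4 of 9 members, let-7d-5p, let-7e-5p, let-7f-5p and let-7g-5p, against 48.4% of all miRNAs. A call for 1 member and not for another is no test of a difference between them. The permutation tests of shares and log2 ratios given below did not pass, and could not with 3 libraries per group. In edgeR scaled on the summed count of the 9 members, let-7e-5p and let-7f-5p were still called, in opposite directions.

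**Figure D1:**
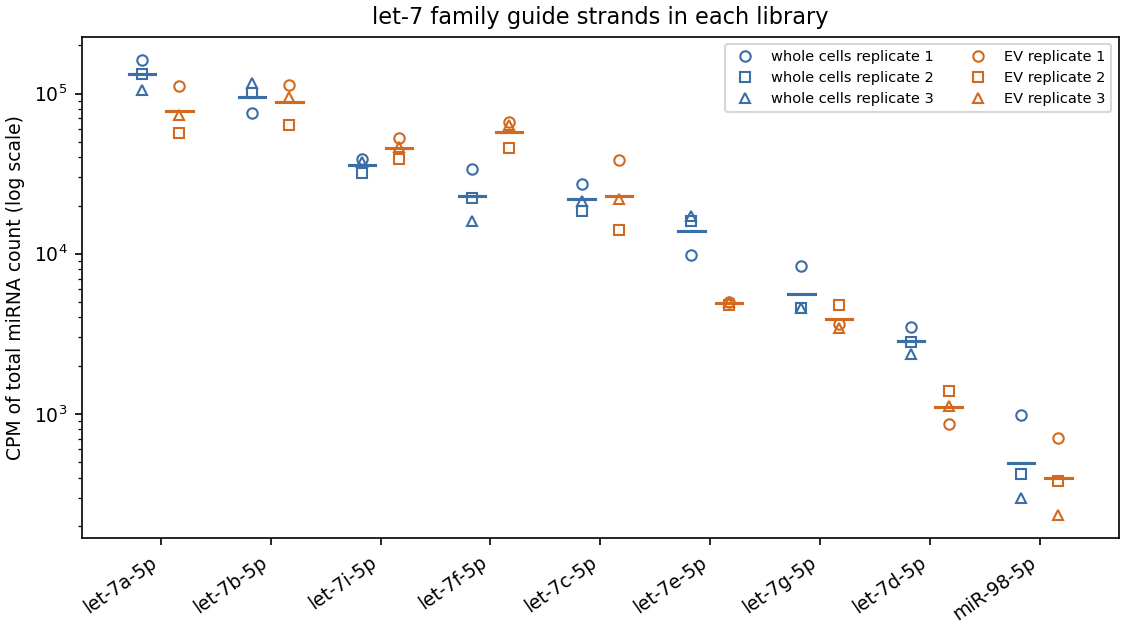
Level of each let-7 family member in each library, in CPM on a log axis, with whole cells in blue and EV in orange, 1 symbol per replicate and a line at the geometric mean of each group. The EV libraries of let-7f-5p (45477 to 66174 CPM) lie above all whole cell libraries, and those of let-7d-5p and let-7e-5p lie below.

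The member that rose in EV was let-7f-5p, which differs from let-7a-5p only by G12A. Its level was 34033, 22318 and 16120 CPM in whole cell replicates 1, 2 and 3. In EV replicates 1, 2 and 3 it was 66174, 45477 and 63424 CPM. The groups did not overlap, with the lowest EV library above the highest whole cell library, and let-7f-5p moved from between rank 7 and rank 15 of all miRNAs in whole cells to between rank 5 and rank 7 in EV. The log2 fold change was 1.36 ± 0.39 (SE; edgeR quasi-likelihood test, adjusted p = 0.0377), and DESeq2 gave 1.10 ± 0.45 (SE; DESeq2, adjusted p = 0.0399). The call rested on the scaling and on single libraries. With RLE factors the log2 fold change was 1.10 and the adjusted p 0.0967 (edgeR), and with upper-quartile factors they were 1.30 and 0.105. When 1 library was left out the log2 fold change ran from 0.97 (without whole cell replicate 3) to 1.51 (without whole cell replicate 1), and only without EV replicate 2 did the call pass. When the trend with GC content was removed from each library, the value turned to -0.57 (edgeR, adjusted p = 0.349).

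let-7e-5p, which carries U9G and the GGAG motif, was the member with the largest fall. Its level was 9767, 16011 and 17139 CPM in whole cell replicates 1, 2 and 3. In EV it was 4981, 4812 and 4965 CPM. The EV libraries lay within 1.04-fold of each other and below all whole cell libraries, of which replicate 1 was the lowest. The log2 fold change was -1.57 ± 0.40 (SE; edgeR quasi-likelihood test, adjusted p = 0.0213), and DESeq2 gave -1.75 ± 0.39 (SE; DESeq2, adjusted p = 5.77e-05). Without whole cell replicate 2 it was -1.56 and without whole cell replicate 3 it was -1.57, with adjusted p of 0.0952 and 0.0765 in edgeR, and the call was lost in these settings. It held when each of the other 4 libraries was left out and after removal of the GC trend (log2 fold change -2.69; edgeR, adjusted p = 0.0113).

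let-7d-5p, the member with another first base (U1A) and the UGCA motif, fell in EV as well. Its level was 3467, 2793 and 2350 CPM in whole cell replicates 1, 2 and 3. In EV it was 869, 1381 and 1115 CPM. The groups did not overlap, and the highest EV library was well under the lowest whole cell library. The log2 fold change was -1.35 ± 0.28 (SE; edgeR quasi-likelihood test, adjusted p = 0.0117), and DESeq2 gave -1.58 ± 0.33 (SE; DESeq2, adjusted p = 1.95e-05). The call was lost without whole cell replicate 2 (log2 fold change -1.46; edgeR, adjusted p = 0.107), and it held when any other library was left out and after removal of the GC trend (log2 fold change -2.37; edgeR, adjusted p = 0.00734). When the counts were scaled on the summed count of the 9 members, let-7d-5p was at -1.10 and did not pass (edgeR, adjusted p = 0.138), while let-7e-5p was at -1.38 and let-7f-5p at 1.43, both called.

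The 2 leading members of whole cells, let-7a-5p and let-7b-5p, did not pass the test. The level of let-7a-5p was 163204, 133283 and 105836 CPM in whole cells and 111899, 56665 and 73028 CPM in EV. EV replicate 1 lay above whole cell replicate 3, so that the groups overlapped. The log2 fold change of let-7a-5p was -0.66 ± 0.43 (SE; edgeR quasi-likelihood test, adjusted p = 0.330). After removal of the GC trend it was -2.16 and passed (edgeR, adjusted p = 0.0185), and with no filter on low counts it was -0.95 and passed (edgeR, adjusted p = 0.0402). The level of let-7b-5p, the most GC-rich member, was 75139, 100268 and 116725 CPM in whole cells and 112709, 64054 and 94889 CPM in EV. The groups overlapped nearly in full, and the log2 fold change was -0.09 ± 0.46 (SE; edgeR quasi-likelihood test, adjusted p = 0.916), and the value was 0.10 without EV replicate 2.

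let-7c-5p and let-7i-5p were intermediate in level and did not pass either. The level of let-7c-5p was 27400, 18573 and 21279 CPM in whole cells and 38221, 14062 and 22006 CPM in EV, so EV held both the highest and the lowest value. Its log2 fold change was 0.23 ± 0.47 (SE; edgeR quasi-likelihood test, adjusted p = 0.777), and the sign turned with RLE factors (-0.01) and with the GC trend removed (-0.79). The level of let-7i-5p was 38826, 31700 and 37266 CPM in whole cells and 52955, 39092 and 46672 CPM in EV. Each EV library of let-7i-5p lay above each whole cell library on this scale, but EV replicate 2 fell among the whole cell libraries after TMM scaling. Its log2 fold change was 0.40 ± 0.35 (SE; edgeR quasi-likelihood test, adjusted p = 0.478), and it was -0.65 with the GC trend removed.

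The 2 remaining members were let-7g-5p, which lay above let-7d-5p in every library, and miR-98-5p, the lowest member in both groups. The level of let-7g-5p was 8353, 4570 and 4554 CPM in whole cells and 3615, 4762 and 3440 CPM in EV. After TMM scaling all EV libraries of let-7g-5p lay below all whole cell libraries, but the log2 fold change of -0.53 ± 0.28 (SE) did not pass (edgeR quasi-likelihood test, adjusted p = 0.230). The level of miR-98-5p was 980, 421 and 296 CPM in whole cells and 703, 379 and 232 CPM in EV. It spread more than 3-fold within each group, and the log2 fold change was -0.24 ± 0.58 (SE; edgeR quasi-likelihood test, adjusted p = 0.802) and turned to 0.19 without whole cell replicate 1. With the GC trend removed let-7g-5p was at -1.95 (edgeR, adjusted p = 0.00837) and miR-98-5p at -1.99 (edgeR, adjusted p = 0.0381), both called.

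**Figure D2:**
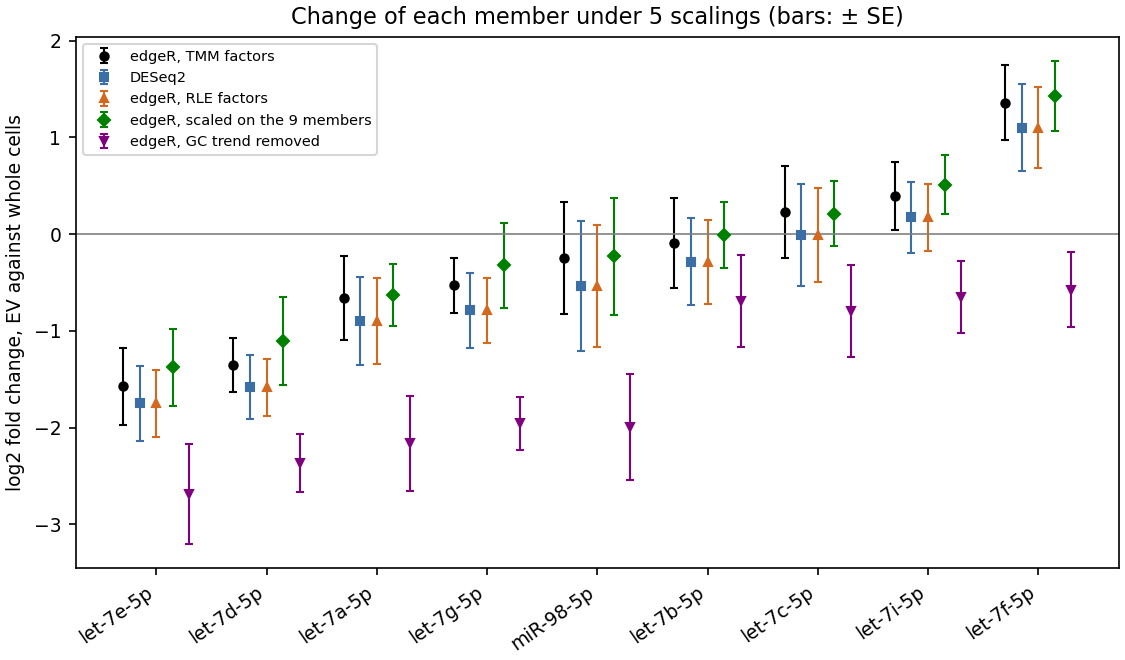
Log2 fold change of each member (EV against whole cells) with its SE, under edgeR with TMM factors, DESeq2, edgeR with RLE factors, edgeR scaled on the summed count of the 9 members, and edgeR with the GC trend removed. let-7e-5p and let-7d-5p lie below 0 and let-7f-5p above 0 under the first 4, and with the GC trend removed all 9 values lie below 0, from -2.69 to -0.57.

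The order of the members by level differed between the groups. In whole cells the order by mean log2 CPM was let-7a-5p, let-7b-5p, let-7i-5p, let-7f-5p, let-7c-5p, let-7e-5p, let-7g-5p, let-7d-5p and miR-98-5p. The ranges of let-7a-5p and let-7b-5p overlapped in whole cells, as did those of let-7i-5p and let-7f-5p and those of let-7f-5p and let-7c-5p. In EV the order was let-7b-5p, let-7a-5p, let-7f-5p, let-7i-5p, let-7c-5p, let-7e-5p, let-7g-5p, let-7d-5p and miR-98-5p. Among the first 4 each range overlapped with the next, although let-7b-5p exceeded let-7a-5p in 3 of 3 EV libraries, by a factor of 1.007 to 1.30. let-7a-5p exceeded let-7b-5p in 2 of 3 whole cell libraries. Mature miRNAs are of nearly equal length, and these levels were not corrected for differences in ligation between sequences.

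A share of the summed count of the 9 members needs no scaling between libraries. The mean share of let-7f-5p was 7.07% ± 2.22 in the whole cell libraries and 19.0% ± 1.90 in the EV libraries (SD, n = 3). let-7i-5p took 10.6% ± 0.994 in whole cells and 15.2% ± 1.72 in EV (SD, n = 3). Neither member had an EV share as low as its highest whole cell share. let-7a-5p went the other way, from 39.5% ± 6.19 in whole cells to 25.6% ± 2.63 in EV (SD, n = 3). let-7e-5p took 4.30% ± 1.40 and 1.65% ± 0.410, and let-7d-5p 0.846% ± 0.115 and 0.393% ± 0.191, in whole cells and EV respectively (SD, n = 3). None of these 3 members had an EV share as high as its lowest whole cell share. Each of the 5 members had a two-sided exact permutation p = 0.1, the smallest that 3 against 3 libraries can give, and an adjusted p of 0.18 over the 9 members. Separation was common in these data, as 48.4% of all miRNAs tested did not overlap between the groups by TMM-scaled CPM, which is another measure. The shares of let-7b-5p (29.2% ± 7.82 and 29.05% ± 1.46), let-7c-5p (6.61% ± 0.979 and 7.65% ± 1.89), let-7g-5p (1.70% ± 0.527 and 1.37% ± 0.612) and miR-98-5p (0.164% ± 0.0949 and 0.140% ± 0.0564) overlapped between the groups (SD, n = 3). Shares of 1 sum are tied to each other, and the same 5 members separated the groups when each level was centred on the mean log2 level of the 9 members.

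**Figure D3:**
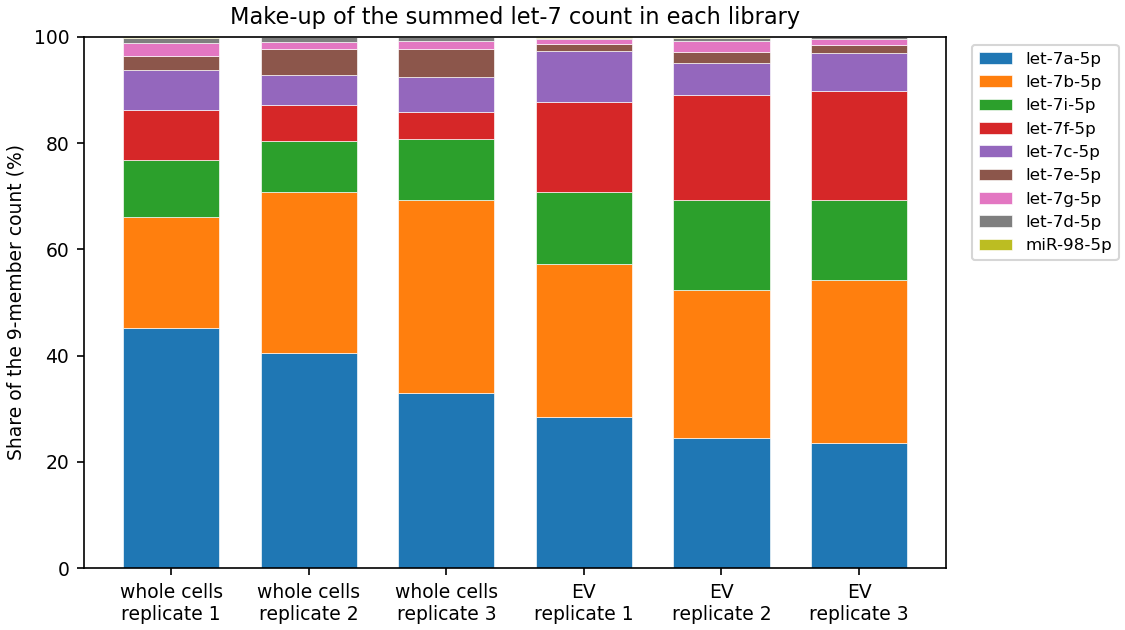
Share of each member (%) in the summed count of the 9 members, 1 bar per library. The part of let-7f-5p is larger in the EV bars (mean 19.0%) than in the whole cell bars (mean 7.07%), and that of let-7a-5p is smaller (25.6% against 39.5%).

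The summed share of the family in the total count depended on what it was measured against. Against the total count it differed by -2.67 percentage points between EV and whole cells, less than the spread between EV libraries. The 2 most abundant miRNAs outside the family in EV, miR-21-5p and miR-16-5p, were then left out of the total. The family took 35.5% ± 2.79 in whole cells and 39.9% ± 9.72 in EV (SD, n = 3). This was a difference of 4.41 points in the other direction (two-sided exact permutation test, p = 0.6). Both miRNAs left out were higher in EV (edgeR log2 fold changes 3.11 and 1.70). Their removal therefore raised the EV share more than the whole cell share by construction. The difference from the whole total also turned sign, to 1.34 points, without EV replicate 2, which had the lowest summed share.

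Whether members changed unequally was asked of the log2 ratio of each pair of members within a library, which is free of scaling between libraries. Of the 36 pairs, 17 (47.2%) did not overlap between the groups, against 46.5% of all pairs of the 430 miRNAs tested. The members thus moved apart about as often as any pair of miRNAs. let-7f-5p had the most such pairs, as its ratio to each of the other 8 members did not overlap. These 8 ratios share the counts of let-7f-5p and are not separate observations. How often a miRNA outside the family separates in this way from 8 others was not tested. The log2 ratio of let-7a-5p to let-7f-5p was 2.52 ± 0.23 in whole cells and 0.43 ± 0.29 in EV (SD, n = 3), a difference of -2.09 between miRNAs that differ at 1 base. The log2 ratio of let-7e-5p to let-7f-5p had the largest difference of the 36, -2.82, and for let-7d-5p to let-7f-5p it was -2.68. Ratios of let-7f-5p to let-7g-5p (1.84), miR-98-5p (1.65) and let-7i-5p (0.96) were all larger in EV. let-7i-5p had 5 such pairs, let-7c-5p, let-7d-5p and let-7e-5p 4 each, let-7b-5p 2 and miR-98-5p 1. Each of the 17 pairs had a two-sided exact permutation p = 0.1, the smallest possible, and the lowest adjusted p over the 36 pairs was 0.212.

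**Figure D4:**
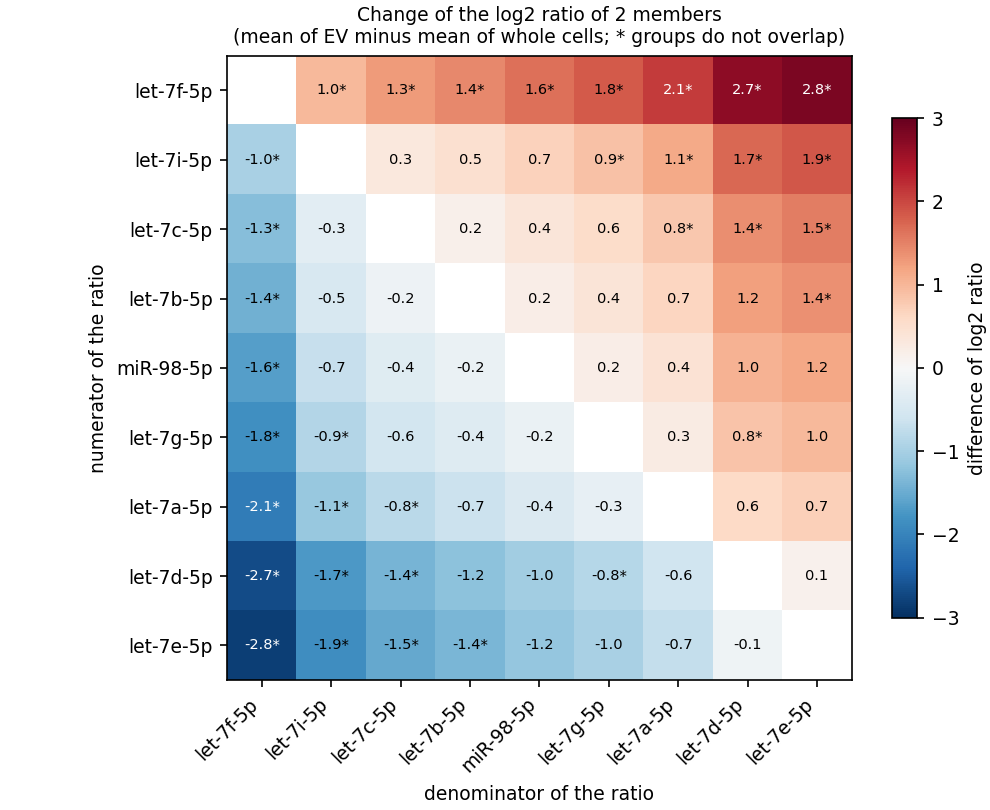
Difference of the log2 ratio of each pair of members between EV and whole cells (mean of EV minus mean of whole cells), with the numerator in rows and the denominator in columns and an asterisk where the groups do not overlap. The whole row of let-7f-5p carries asterisks, whereas let-7d-5p against let-7e-5p (0.14) does not.

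Members with a copy in 1 host gene formed 5 pairs, of which 3 did not overlap between the groups, beside the 46.5% of all pairs. These 3 were the pairs with let-7f-5p, whose ratio to each of the other 8 members did not overlap. The part of host sharing in these ratios was not tested. In the lincRNA on chromosome 9 they were the pairs with let-7a-5p (-2.09) and let-7d-5p (-2.68) given above. The log2 ratio of let-7f-5p to miR-98-5p, which share a HUWE1 intron, was 5.54 ± 0.36 in whole cells and 7.18 ± 0.81 in EV (SD, n = 3). The other 2 pairs overlapped. The log2 ratio of let-7a-5p to let-7d-5p, from the same lincRNA, differed by 0.59 (two-sided exact permutation test, p = 0.4), and that of let-7a-5p to let-7b-5p, which share MIRLET7BHG, differed by -0.65 (two-sided exact permutation test, p = 0.2). Counts of let-7a-5p and let-7f-5p also hold reads from their copies elsewhere.

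Base composition moved with these differences. For the 390 of 430 miRNAs with a sequence, log2 TMM-scaled CPM was taken relative to the mean of the 6 libraries. It changed per 10 points of GC content by -0.44, -0.44 and -0.58 in EV replicates 1, 2 and 3. The change per 10 points was 0.66 and 0.84 in whole cell replicates 2 and 3 but -0.04 in whole cell replicate 1. miRNAs outside the family with a GC content under 40% had a median log2 fold change of 2.05 (n = 61), and those from 40% to under 45% had a median of 0.88 (n = 47). The 4 members under 40%, let-7f-5p included, lay below the first median, and all members at 40.9% lay below the second. let-7b-5p, at 45.5% GC and a log2 fold change of -0.09, went the other way. It lay above the median of -0.28 for miRNAs from 45% to under 50% (n = 74). Across miRNAs, as a description of points that share the same 6 libraries, the log2 fold change and the GC content had Pearson's r = -0.343 over the 9 members and -0.345 over the 390 miRNAs. Removal of the trend gave 5 called members, all lower (let-7a-5p, let-7d-5p, let-7e-5p, let-7g-5p and miR-98-5p), and 0 higher. In that fit 24.6% of the 390 miRNAs were called, and 14.6% were called lower. The contribution of library preparation or extraction to this trend was not tested.

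**Figure D5:**
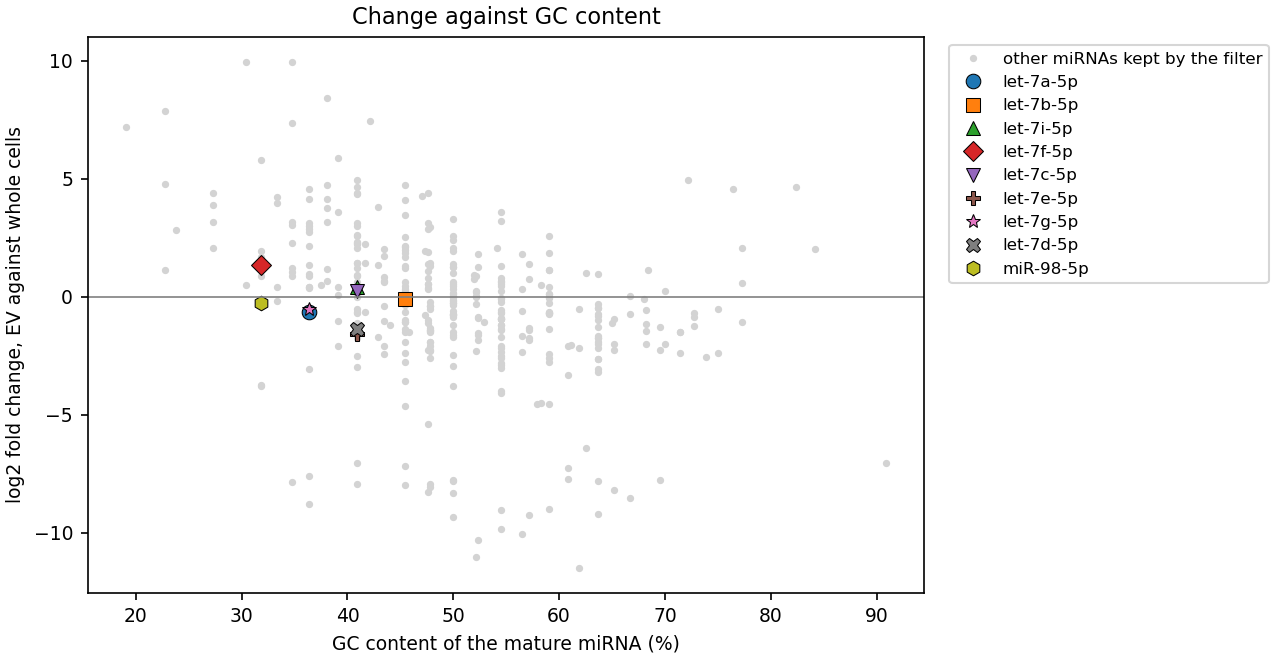
Log2 fold change (EV against whole cells) against the GC content of the mature strand (%), with the 9 members as coloured symbols and the other miRNAs that passed the filter and had a sequence in grey. Under 40% GC the median of the grey points is 2.05, and the members there lie between -0.66 and 1.36.

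Members of equal GC content give a comparison in which that property is shared. Among 8 such pairs 5 (62.5%) did not overlap between the groups, beside 46.5% of all pairs of miRNAs tested, whatever their GC content. The pairs at 40.9% GC all came from let-7c-5p, let-7d-5p, let-7e-5p and let-7i-5p, so they are not independent. The share among pairs of equal GC content outside the family was not tested. At 40.9% GC the log2 ratio of let-7c-5p to let-7e-5p was 0.67 ± 0.71 in whole cells and 2.21 ± 0.70 in EV (SD, n = 3). The gap was narrow, between 1.49 in whole cell replicate 1 and 1.55 in EV replicate 2. The ratio of let-7c-5p to let-7d-5p likewise was larger in EV, by 1.40. The ratios of let-7d-5p and of let-7e-5p to let-7i-5p were smaller in EV, with differences of -1.72 and -1.86. At 31.8% GC the ratio of let-7f-5p to miR-98-5p was larger by 1.65. The pairs let-7a-5p with let-7g-5p, let-7c-5p with let-7i-5p and let-7d-5p with let-7e-5p overlapped. After removal of the GC trend let-7f-5p was 1.59 above let-7a-5p on the log2 fold change scale, compared with 2.02 before it, and 2.11 above let-7e-5p, compared with 2.93.

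Whole cell replicate 1, the library with the smallest total count, stood apart from whole cell replicates 2 and 3 in the balance of the members. By log2 TMM-scaled CPM it was lower than their mean for let-7e-5p and let-7b-5p, with differences of -1.16 and -0.92. It was higher for miR-98-5p, by 1.08, for let-7g-5p, by 0.48, and for let-7f-5p, by 0.45. This difference fell with GC content, with Pearson's r = -0.816 over the 9 members and -0.590 over the 390 miRNAs with a sequence. Without this library let-7d-5p and let-7e-5p were called and let-7f-5p was not. Within groups the median SD of log2 TMM-scaled CPM was compared with that of the 191 miRNAs of at least 100 CPM. It was 0.28 for the members and 0.46 for the 191 miRNAs in whole cells, and 0.52 and 0.66 in EV.

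Other miRNAs that are made with let-7 members were read from the same fit. miR-99a-5p and miR-100-5p, which lie beside let-7c and a copy of let-7a, had log2 fold changes of 1.28 and 1.03. miR-125b-5p, from the same clusters, was at -1.19, and its groups did not overlap after TMM scaling. miR-99b-5p and miR-125a-5p, the neighbours of let-7e, were at -0.83 and -0.86. Of these 5 miRNAs 0 were called by edgeR (lowest adjusted p = 0.124) and 1, miR-125b-5p, had an unadjusted p under 0.05. DESeq2 called that 1 miRNA as lower (adjusted p = 0.0149). Their median log2 fold change in edgeR was -0.83 beside -0.23 for all miRNAs tested. Among the 2 other miRNAs with the let-7 seed, miR-4458 had 1, 21 and 5 counts in whole cells and 0 in each EV library, and miR-4500 had 0 counts in all 6 libraries. Neither passed the filter.

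The opposite (passenger) strands were rare in both groups. All 11 together had 0.594 to 1.39 counts per 1000 guide counts in whole cells and 0.703 to 1.60 in EV. Only 6 of the 11 passed the filter, and 0 of these were called by edgeR or DESeq2 or had an unadjusted p under 0.05 in edgeR. Their median log2 fold change was -0.64. Relative to its guide let-7d-3p was the highest, in every library, of the 7 passenger strands whose guide has 1 locus. Per 1000 counts of let-7d-5p it had 22.6, 74.5 and 128 counts in the 3 whole cell libraries. EV replicates 1 and 2 had 133 and 136, and EV replicate 3 lay between whole cell replicates 2 and 3. Whole cell replicate 1 was well below the other 5 libraries, and let-7d-3p had a log2 fold change of -0.61 ± 0.69 (SE; edgeR quasi-likelihood test, adjusted p = 0.590). let-7c-3p lay at 9.58 to 15.8 CPM in whole cells and 22.6 to 39.98 CPM in EV, and its log2 fold change was 1.29 ± 1.00 (SE; edgeR quasi-likelihood test, adjusted p = 0.412). miR-98-3p, which did not pass the filter, had 26.7 and 59.6 counts per 1000 counts of miR-98-5p in EV replicates 1 and 2 and 0 in EV replicate 3, and 2.58, 0 and 0 in the whole cell libraries. Of the 11 passenger strands 2, 1 and 1 had 0 counts in whole cell replicates 1, 2 and 3, compared with 4, 4 and 7 for EV.

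Markers of other cell types were checked as lists. The 5 miRNAs listed for Müller glia and neural progenitors summed to between 135481 and 137757 CPM in whole cells and between 69409 and 106765 CPM in EV. Most of the sum in whole cells was miR-125b-5p, and the list had 1 member called higher in EV (miR-9-3p, log2 fold change 5.80), 1 called lower (miR-204-5p, -1.90) and a median of 1.03. miR-124-3p, the neuronal marker, had 0 counts in every library. The 3 photoreceptor miRNAs summed to 227 to 333 CPM in whole cells and 1151 to 1218 CPM in EV. Of these, 2 were called higher in EV (miR-182-5p and miR-183-5p), beside 14.7% of all miRNAs tested. The other, miR-96-5p, was at a log2 fold change of 0.09 and had 0 counts in EV replicates 1 and 3. The 7 blood and serum miRNAs summed to 172 to 1174 CPM in whole cells and 1718 to 2341 CPM in EV. Of the 4 that passed the filter 3 were called higher (miR-451a, miR-142-3p and miR-122-5p), beside 14.7% of all miRNAs tested. The other, miR-486-5p, made up most of each sum and was not called (edgeR, adjusted p = 0.487). It had 164, 875 and 1161 CPM in whole cells and 1217, 1711 and 1197 CPM in EV. miR-451a had 0 counts in every whole cell library. miR-144-3p had 0 counts there as well, and also in EV replicates 1 and 3. The part of RNA from other sources, the growth serum included, in the let-7 counts of EV was not tested.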

How the data were processed

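Adapters were removed by the authors with Cutadapt and reads were assigned with featureCounts. The deposited tables hold, per the file headers, raw counts per mature miRNA from featureCounts 1.5.0-p1 (strand setting 1, miRBase release 20, Bowtie 1), whereas the methods name Bowtie2 and another release. Whether unique molecular identifiers were collapsed is not given in the sources used here. Samples were grouped by the fraction in their labels.

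Counts were tested with edgeR 4.0.16 in R 4.3.3 (TMM factors, quasi-likelihood test, no covariate) and with DESeq2 1.42.0, after leaving out miRNAs under 5 CPM in more than 3 of 6 libraries, with Benjamini-Hochberg adjustment. Shares and log2 ratios (pseudocount 0.5) were compared by two-sided exact permutation tests. For the GC alternative, the slope of log2 TMM-scaled CPM on GC content was removed from each library. This covered 390 miRNAs with a RefSeq sequence, a match of 90.7%. The other alternatives were factors, filter, thresholds, a replicate block, the denominator and each library left out. All 9 members were named, besides list members that passed the filter and the 3 most alike miRNAs. Members and lists were chosen with earlier results of these data known. Figures used matplotlib 3.10.9 and Python 3.11.15.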

Additional observations from a re-analysis of the deposited data

How the results depend on the processing

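Of the 3 members called, let-7e-5p alone was called with a replicate block (1 member, and 13.0% of all miRNAs), but libraries with the same number had residual correlations of -0.037, 0.019 and -0.052, and the numbers do not pair the samples. The number called was 5 with the GC trend removed (24.6% of all miRNAs), 5 with that trend fitted on miRNAs of at least 100 CPM (25.1%; chosen after seeing the data), 0 at an adjusted p under 0.01 (7.21% of all miRNAs) and 0 where the log2 fold change also had to reach 2.5 in size (21.6%), and the 3 had an unadjusted p under 0.05. With 1 library left out it ran from 0 (without whole cell replicate 2, where 2 had an unadjusted p under 0.05 and 6.86% of all miRNAs were called) to 3 (without EV replicate 2, 27.9%), and it was 1 without whole cell replicate 3 (9.79%). The count stayed between 2 and 4 with DESeq2, RLE factors, upper-quartile factors, library totals, TMM factors computed without the members and no filter. Across these settings between 20.2% (no filter) and 34.7% (DESeq2) of all miRNAs tested were called. With 1 library left out let-7b-5p ran from -0.40 to 0.10 (positive without EV replicate 2), let-7c-5p from -0.36 (without EV replicate 1) to 0.46, and miR-98-5p from -0.90 to 0.19 (positive without whole cell replicate 1). let-7c-5p was also at -0.010 (DESeq2 and RLE factors), -0.028 (TMM without the members), -0.065 (no filter), -0.79 and -0.80 (both GC fits). With the GC fits let-7f-5p was at -0.57 and -0.64, and let-7i-5p at -0.65 and -0.64. The difference in summed share ran from -6.73 to 1.34 points with 1 library left out (positive without EV replicate 2), and was 4.41 without the 2 abundant miRNAs. Members with separate shares numbered 5 to 6, and separate pairs 17 to 25, with 1 library left out. Groups of 2 libraries separate more easily than groups of 3. Except where the setting itself removes samples, the cause was not tested. Depth limited miR-98-5p most.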

Other observations

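Among 183 miRNAs outside the family with a mean of at least 100 CPM, those whose log2 CPM most resembled the log2 summed CPM of the 9 members over the 6 libraries were miR-487b-3p (Pearson's r = 0.937), miR-154-5p (r = 0.827) and miR-365b-3p (r = 0.708). miR-487b-3p, a miRNA of the imprinted cluster on the long arm of chromosome 14, had 1295, 1067 and 862 CPM in whole cells and 1194, 643 and 929 CPM in EV. miR-154-5p, of the same cluster, had 401, 229 and 173 CPM in whole cells and 223, 89.8 and 134 CPM in EV. miR-365b-3p had 227, 275 and 188 CPM in whole cells and 45.7, 0 and 0.319 CPM in EV. These are descriptions of 6 libraries, chosen as the highest of many.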
